A study of Mus musculus with 18 samples.

Results

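The comparison set 6 arrays of non-SP cells against each other, 3 with a high level of Efemp1 and 3 with a low one, out of 18 arrays in the series. The 18 arrays covered 3 mouse lung carcinoma lines, A2C12, betaD5 and cRAF_cMYC, each as side population (SP) and non-SP cells with 3 arrays per line and fraction. SP cells pump the DNA dye Hoechst out through ABC transporters, and non-SP cells keep it. The lines had transformed spontaneously in culture from cells of lung tumours of 8-month-old mice that carried both a c-Raf and a c-Myc transgene, so every group shared both oncogenes and no normal lung cell was measured. The promoter of the transgenes, the strain and the number of clones behind a line were not given in the sources used here.

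The Efemp1-high set held the non-SP arrays labelled betaD5 1, cRAF_cMYC 1 and cRAF_cMYC 2, and the Efemp1-low set held betaD5 2, betaD5 3 and cRAF_cMYC 3. The members were chosen by their measured Efemp1 level: non-SP arrays of these lines with Efemp1 above 9 on the log2 scale went into the first set and those below 9 into the second. Efemp1 was 13.51, 13.08 and 13.59 in the first set and 3.97, 3.90 and 3.80 in the second, in the order of labels just given, so the values nearest to the threshold were 13.08 above it and 3.97 below it. Fgf13, the X-linked gene of an intracellular fibroblast growth factor homologue that serves here as a check of the second set's name, was 5.96, 5.19 and 4.32 in the first set and 11.99, 12.31 and 12.20 in the second. Both sets therefore carried the pattern of their names in each array, and both mixed the 2 labelled lines. All values are log2 signals of a gene's brightest probe set after quantile normalization, so a difference of 1 is a 2-fold difference in signal, and differences are given as Efemp1-high minus Efemp1-low.

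Since every gene of the 6 non-SP arrays took part in proposing the sets, their differences in non-SP cells are described without a test. Tests were made in the 6 SP arrays with the same line labels and numbers, which the rule did not use and which, where a number marks a shared culture, are the sister fractions of the non-SP arrays. In the SP arrays Efemp1 was 12.96 to 13.42 in the first set and 4.15 to 4.40 in the second. The labels do not say whether arrays of a group came from separate cultures, so p-values measure the spread between these samples, which may be technical. In such bulk RNA, fewer cells of a type and less RNA per cell cannot be told apart.

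Efemp1 encodes fibulin-3, a secreted glycoprotein of elastic fibres and basement membranes. Such matrix proteins, with collagens, the proteases that cut them and the growth factors they bind, are mostly made by mesenchymal cells in the lung, while tumours driven by RAF and MYC there arise in the epithelium. Carcinoma cells that have grown out in culture can keep, lose or gain parts of either programme, and sublines of a tumour can differ in them. The gene groups below follow these roles, from matrix and its enzymes to signals, receptors, transcription factors, metabolism and the cell cycle.

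The arrays fell into the 2 sets over all tested genes. Pearson's r over the 10916 tested genes, which are not independent of each other, was 0.975 to 0.982 within the Efemp1-high non-SP arrays and 0.981 to 0.988 within the Efemp1-low ones, against 0.890 to 0.924 between the sets. The array labelled betaD5 1 thus lay with cRAF_cMYC 1 and 2, and that labelled cRAF_cMYC 3 with betaD5 2 and 3, against their line labels. A2C12 non-SP arrays stood apart from both sets, with r of 0.877 to 0.901 to the first and 0.850 to 0.880 to the second. The lines as labelled did not separate the non-SP arrays: limma called 0 genes (0%) between cRAF_cMYC and betaD5, while 134 genes had an unadjusted p under 0.05 and the smallest adjusted p was 0.975. Without betaD5 1 and cRAF_cMYC 3 the same contrast is the split by Efemp1, in arrays whose own values made the sets. Its 1890 calls among the 10916 genes are therefore no test of the lines or the sets.

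**Figure D1:**
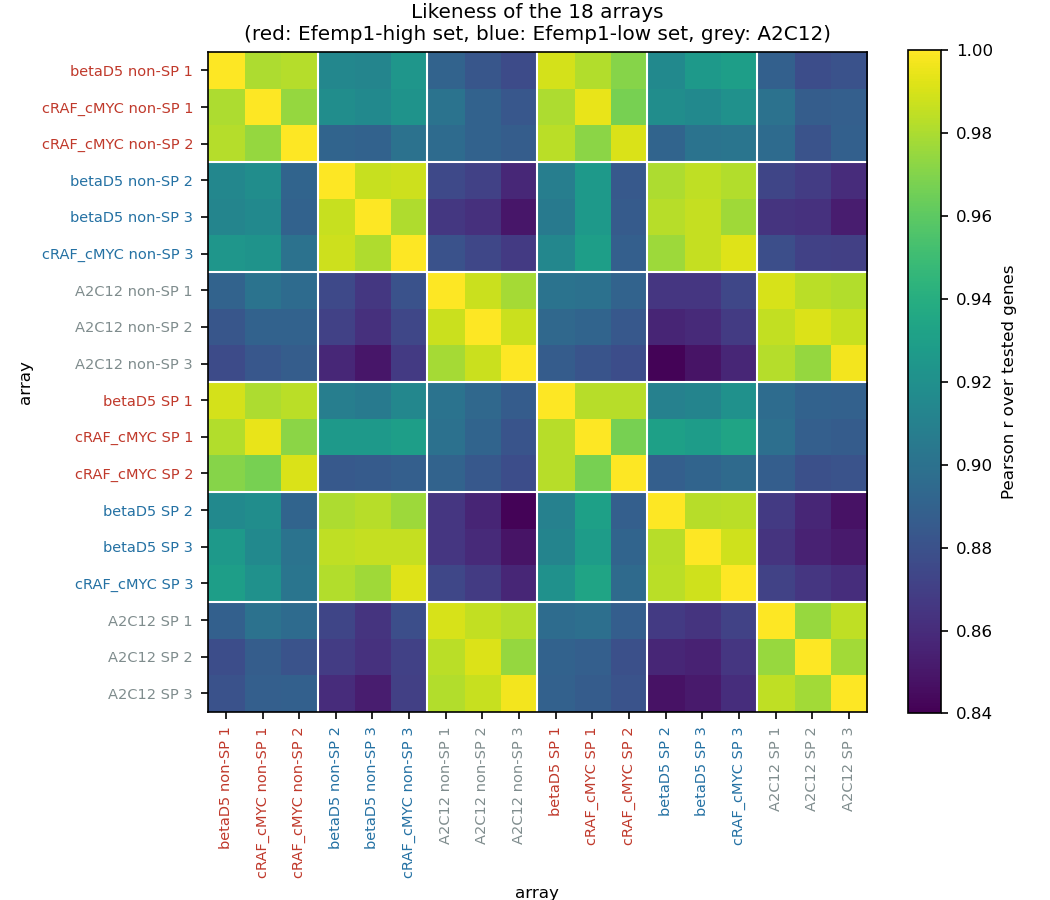
Pearson's r over the tested genes for each pair of the 18 arrays, ordered by set and fraction; both axes list arrays and the colour scale runs from 0.84 to 1. The Efemp1-high (red) and Efemp1-low (blue) arrays form separate blocks in both fractions, with r of 0.890 to 0.924 between them in non-SP cells.

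In the non-SP arrays 601 genes lay at least 2-fold higher in the Efemp1-high set with no overlap between the 3 and 3 arrays (5.51% of those tested) and 250 lay at least 2-fold lower (2.29%). Over all genes 5015 (45.9%) did not overlap, 2448 of them higher (22.4%) and 2567 lower (23.5%). The filter on low values left out 6939 further autosomal genes, of which 313 (4.51%) lay at least 2-fold higher and 51 (0.735%) at least 2-fold lower without overlap, so counts of tested members miss such genes. Conversely, a gene near background in the other arrays passed only through the set where it was high, so its direction was fixed in advance. This covers named genes below as well, whether or not it is repeated there, and such genes add no support to a list's count. The larger differences were mostly higher levels in the Efemp1-high set. At a difference of 3 or more there were 100 genes higher and 10 lower, and at 5 or more 27 higher and 1 lower. In the SP arrays limma called 2989 genes (27.4%) at an adjusted p under 0.05, 1553 higher (14.2%) and 1436 lower (13.2%). Of the 601 genes 574 were called higher in SP cells and 0 lower, and of the 250 genes 226 were called lower and 0 higher. Same-numbered SP and non-SP arrays had r of 0.980 to 0.995, so this sharing of genes is no independent check of the sets. The number of calls moved with single arrays: it was 1863 without the SP array betaD5 1 and 1930 without betaD5 3. It was 810 (7.42%, with 562 or 5.15% higher and 248 or 2.27% lower) without betaD5 1 and cRAF_cMYC 3, which go against their labels. That fit sets 2 arrays against 2. On the values as deposited 568 genes were called higher (5.2%) and 820 lower (7.51%). There the median gene differed by -0.20, against -0.04 after normalization, so that split depends on the scaling. With median centring 1282 were called higher (11.7%) and 1076 lower (9.86%).

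The log2 ratio of the 3' to the 5' probe set of a control transcript rises as RNA or cDNA gets shorter. For Gapdh it was -0.08 to 0.29 in the Efemp1-high SP arrays and 0.07 to 0.97 in the Efemp1-low ones, with betaD5 2 and 3 at 0.76 and 0.97. In the non-SP arrays it was 0.15 to 0.56 against 0.05 to 0.13, the other way round and without overlap. With this ratio (mean of Gapdh and Actb) as a covariate 1041 genes were called in SP cells (9.54%), 659 higher (6.04%) and 382 lower (3.5%). Of the 28 genes named first below 27 remained called.

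**Figure D2:**
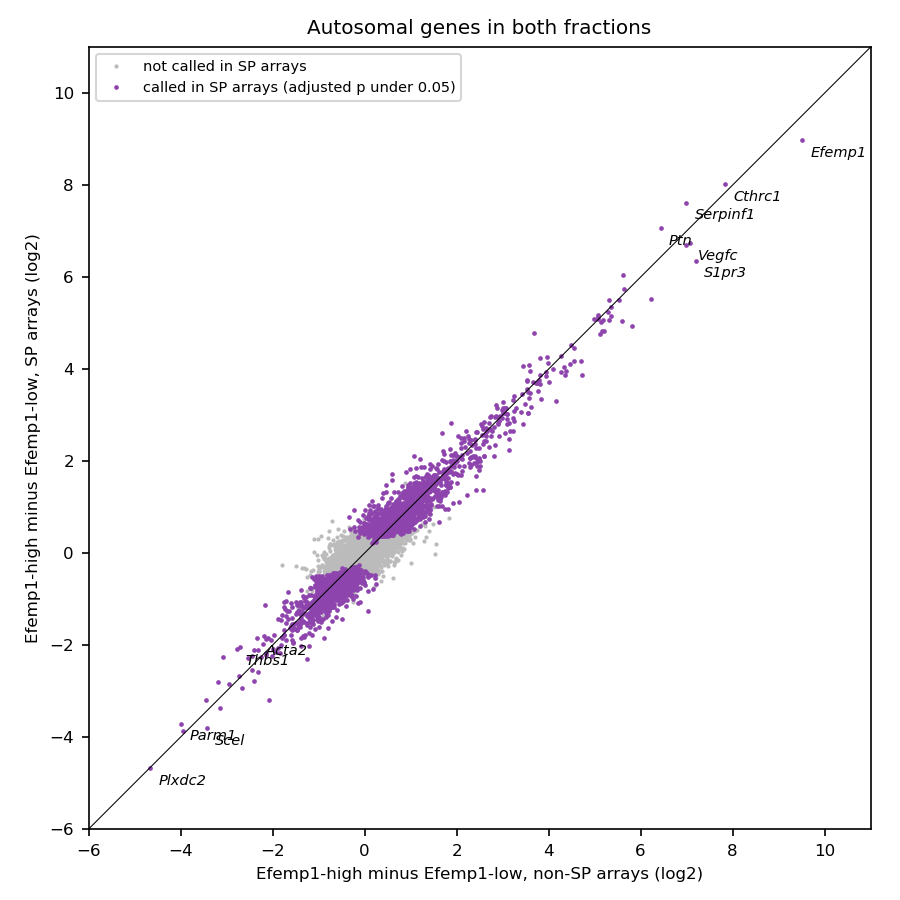
Each point is 1 autosomal gene, with its Efemp1-high minus Efemp1-low difference in the non-SP arrays (x axis, log2) and in the SP arrays (y axis, log2); the line marks equal differences and purple points were called in SP arrays. Genes with large differences lie near the line, from Plxdc2 at -4.66 and -4.67 to Efemp1 at 9.51 and 8.98.

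Cthrc1, a secreted protein of matrix-producing cells, was 12.002, 12.73 and 12.93 in the Efemp1-high non-SP arrays and 5.19, 4.62 and 4.38 in the Efemp1-low ones. Serpinf1, the secreted inhibitor of vessel growth called PEDF, was 12.29, 13.01 and 12.83 against 5.64, 5.52 and 5.98. Tgfbi, a matrix protein named for its induction by TGF-beta, was 11.26, 11.996 and 12.14 against 4.96, 4.71 and 4.77. In each of these genes every Efemp1-high array lay more than 6 above every Efemp1-low array, and the low values sat below 6.54, the lowest mean of any tested gene, where an array signal is close to background. The same genes were called in SP cells, with differences of 8.01 (SE 0.25, adjusted p = 1.76e-08), 7.62 (SE 0.15, adjusted p = 6.20e-10) and 6.70 (SE 0.17, adjusted p = 4.03e-09).

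Vegfc, the growth factor of lymphatic vessels, was 10.23, 10.40 and 10.80 against 3.13, 3.74 and 3.36 in non-SP cells and differed by 6.73 (SE 0.20, adjusted p = 1.25e-08) in SP cells. S1pr3, a receptor for sphingosine 1-phosphate, was 11.58, 11.40 and 12.12 against 4.29, 4.45 and 4.75 and differed by 6.36 (SE 0.27, adjusted p = 1.57e-07). Another probe set of S1pr3 differed by 1.20 in non-SP and 1.81 in SP cells. Ptn, the heparin-binding growth factor pleiotrophin, was 11.83, 13.29 and 11.96 against 6.17, 5.54 and 6.07 and differed by 7.06 (SE 0.19, adjusted p = 7.23e-09). Other probe sets of Ptn differed by 10.26 and by -0.08 in non-SP cells. Among these 3 genes cRAF_cMYC 1 stood highest for Ptn and cRAF_cMYC 2 for the other two, and no array of a set reached the range of the other set. Fam135a, whose function is little known, differed by 6.22 in non-SP cells, and Rgs5, a pericyte-enriched regulator of G protein signalling, by 5.82. Crabp1, a cytosolic binder of retinoic acid, differed by 5.53, and Pde3b, a phosphodiesterase of cyclic nucleotides, by 5.35. All 4 were called in SP cells, at 5.53, 4.94, 5.50 and 5.15.

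The A2C12 arrays did not follow either set as a whole. Efemp1 (13.64 ± 0.06, SD, n = 3) and Cthrc1 (13.03 ± 0.51) stood in A2C12 non-SP cells at the level of the Efemp1-high set. Thy1 (5.64 ± 0.23) and Postn (5.27 ± 0.27) stood at that of the Efemp1-low set, and Vegfc (6.75 ± 0.22) lay between both. Over the 601 genes higher in the Efemp1-high set, the A2C12 mean was nearer to that set in 385 and nearer to the Efemp1-low set in 216, and over the 250 lower genes these counts were 122 and 128.

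The genes farthest below were more varied. Plxdc2, a transmembrane protein with a plexin domain, was 5.10, 5.67 and 5.21 in the Efemp1-high set and 10.22, 9.44 and 10.31 in the Efemp1-low set, and differed by -4.67 (SE 0.21, adjusted p = 2.37e-07) in SP cells. Parm1, a mucin-like membrane protein, was 6.42, 6.50 and 6.38 against 10.31, 10.74 and 10.23 and differed by -3.71 (SE 0.23, adjusted p = 2.09e-06). Itih2, a heavy chain that joins to hyaluronan, was 6.97, 5.95 and 7.02 against 10.49, 10.28 and 10.999 and differed by -3.86 (SE 0.19, adjusted p = 4.41e-07). The 3 genes showed no overlap, and betaD5 3 was the lowest Efemp1-low array for Plxdc2 and Itih2 and the highest for Parm1.

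Gnai1, an inhibitory G protein subunit, was 8.27, 8.15 and 6.99 against 11.00, 10.74 and 11.09, and Scel, a protein of stratified and alveolar epithelium, 8.41, 7.54 and 6.54 against 10.99, 10.82 and 10.97. Both were lowest in cRAF_cMYC 2. In SP cells they differed by -3.38 (SE 0.39, adjusted p = 1.88e-04) and -3.81 (SE 0.45, adjusted p = 1.99e-04). Thbs1, thrombospondin 1, was 9.22, 9.91 and 9.03 against 11.91, 11.99 and 12.58 and differed by -2.08 (SE 0.30, adjusted p = 7.88e-04). Tnnt2, the cardiac troponin T, was 4.62 to 6.25 against 6.72 to 9.07 and differed by -2.53 (SE 0.57, adjusted p = 0.00916). Fbxl7, an F-box protein, Lmcd1, a LIM domain protein, Akr1c14, an aldo-keto reductase, and Ifi27l2b, an interferon-induced gene, differed by -2.72 to -2.52 in non-SP cells and were all called lower in SP cells, by -2.93 to -2.04. Tnnt2 was not called without betaD5 1 and cRAF_cMYC 3 (-2.57, adjusted p = 0.0866) or with the 3' to 5' ratio as a covariate (-1.79, adjusted p = 0.139).

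Csf1r, the receptor of the macrophage growth factor CSF1, was 7.67, 7.71 and 7.45 in the Efemp1-high set and 10.69, 10.29 and 10.68 in the Efemp1-low set, and was called lower in SP cells (-2.86, SE 0.21, adjusted p = 6.72e-06). Of 13 leukocyte markers 4 passed the filter on low values. Ptprc and Itgam, which define leukocytes and myeloid cells, reached at most 4.30 and 4.64 in any of the 18 arrays. The mean level of the 13 markers was 5.60 to 5.69 in the Efemp1-high non-SP arrays and 5.65 to 5.75 in the Efemp1-low ones. A2C12 non-SP cells had Csf1r at 10.58 ± 0.04, the level of the Efemp1-low set.

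**Figure D3:**
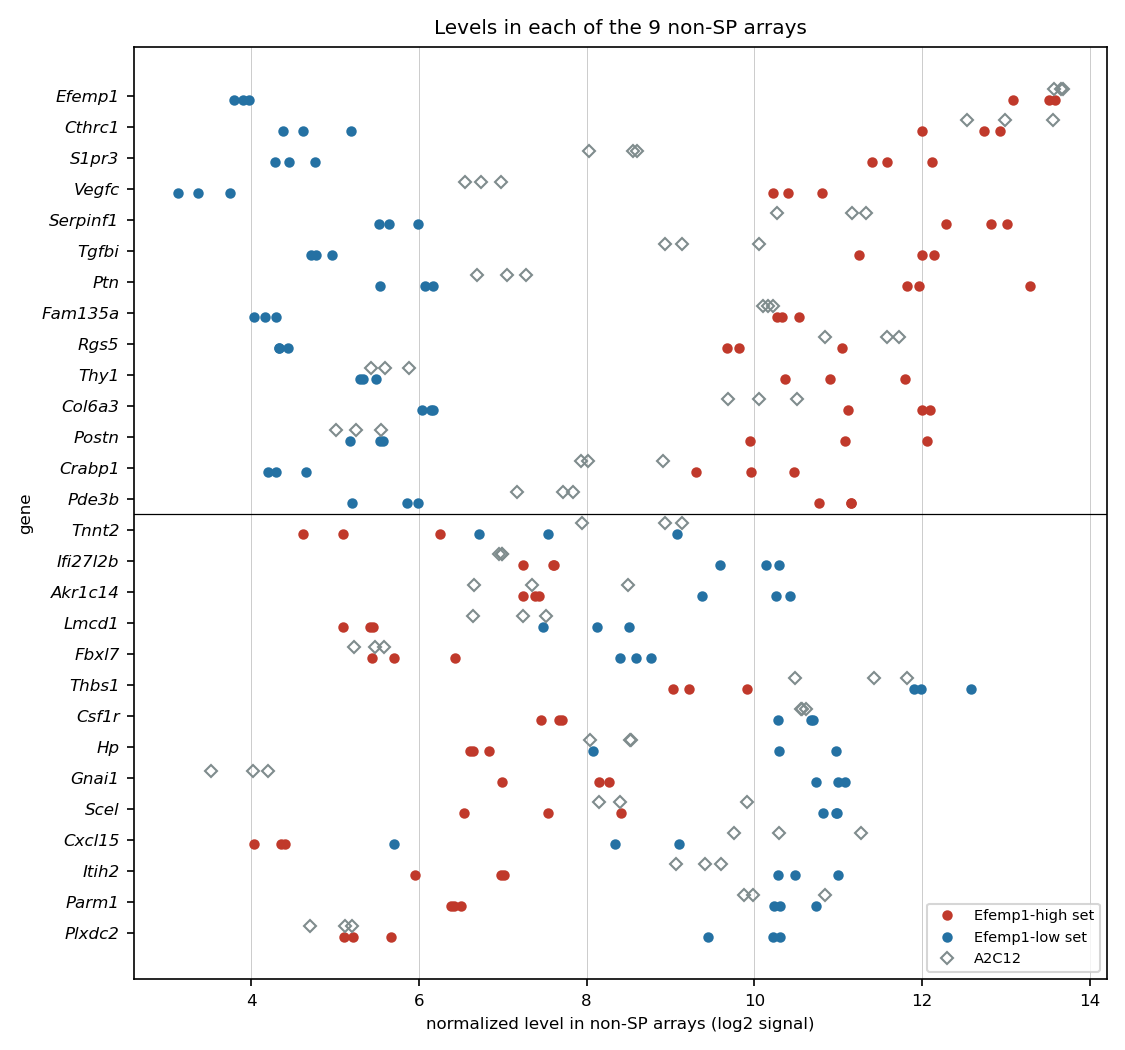
Levels (x axis, normalized log2 signal) of the 14 genes with the largest increases and the 14 with the largest decreases without overlap, autosomal, in the 9 non-SP arrays; each point is 1 array. The Efemp1-high (red) and Efemp1-low (blue) points do not overlap in any of the 28 genes, a consequence of how they were picked, while A2C12 (open diamonds) joins the red points for Cthrc1 and the blue ones for Thy1 and Parm1.

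Spread within a set was large for some of these genes. Cxcl15, a lung epithelial chemokine, was 8.33, 5.70 and 9.10 in the Efemp1-low non-SP arrays, and Hp, haptoglobin, 10.30, 8.08 and 10.98, with betaD5 3 lowest for both. In the Efemp1-high set Cxcl15 was 4.03 to 4.40 and Hp 6.61 to 6.84. Cxcl15 (-3.18, SE 0.47, adjusted p = 9.31e-04) and Hp (-2.25, SE 0.48, adjusted p = 0.00668) were called lower in SP cells. Genes outside the named ones also varied inside a set: Prex2, a Rac exchange factor chosen after its values were seen, was 7.24 and 6.95 in betaD5 1 and cRAF_cMYC 1 and 4.33 in cRAF_cMYC 2. The median SD of a gene was 0.19 within the Efemp1-high and 0.16 within the Efemp1-low non-SP arrays, against a median absolute difference of 0.31 between the sets. Hp was not called without betaD5 1 and cRAF_cMYC 3 (-1.78, adjusted p = 0.0739).

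Among 17 fibroblast and stromal markers, 8 of 12 tested members were called higher and 1 lower in SP cells, beside 14.2% and 13.2% of all genes. Every list count below stands beside these shares, and a count in another setting beside that setting's shares given above. The median difference of the 12 tested fibroblast and stromal members in non-SP cells was 1.32, against -0.05 over all genes. The mean level of the 17 markers was 10.02 to 10.50 in the Efemp1-high and 8.36 to 8.57 in the Efemp1-low non-SP arrays. Thy1, a surface glycoprotein of fibroblasts, was 10.90, 10.37 and 11.80 against 5.30, 5.48 and 5.34 in non-SP cells. Postn, a matrix protein of activated fibroblasts, was 9.95, 12.05 and 11.09 against 5.18, 5.53 and 5.57. Dpt, dermatopontin, was 10.68, 11.72 and 11.41 against 6.08, 6.51 and 5.79, and Pdgfra, a receptor for platelet-derived growth factor, 12.20, 12.13 and 12.42 against 8.99, 7.72 and 8.79. All 4 were called higher in SP cells, at 5.74, 5.04, 5.03 and 3.69. Thy1 and Postn lay below 6.54 in the Efemp1-low and A2C12 non-SP arrays, and Dpt in the Efemp1-low ones. Thy1, Postn and Dpt passed the filter through their Efemp1-high values. Their direction was thus fixed by the filter, and they add no support to the count. Postn ranged by 2.10 within the Efemp1-high set, with betaD5 1 lowest. The list did not move as a whole: Col1a1, the main chain of type I collagen, was called lower, and Col1a2, its partner chain, was 14.45 ± 0.03 against 14.36 ± 0.19 (SD, n = 3). Fap, a surface protease of fibroblasts, lay 5.44 higher in the Efemp1-high non-SP arrays but was left out of the tests by the filter, which uses the mean over all 18 arrays.

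Matrix genes were called in both directions. Of the glycoproteins and proteoglycans, 10 of 32 tested members were called higher and 5 lower in SP cells, beside 14.2% and 13.2% of all genes. The lower calls were thus near the share over all genes. Glycoprotein calls were 9 higher and 3 lower without betaD5 1 and cRAF_cMYC 3. Of those left out by the filter 3 of 9 lay at least 2-fold higher without overlap in non-SP cells, beside 4.51% of all autosomal genes left out. Sparcl1, a counter-adhesive secreted protein, was 9.62, 10.38 and 9.64 against 4.78, 4.74 and 4.79 in non-SP cells, and Thbs2, thrombospondin 2, was 11.75, 11.93 and 12.09 against 7.73, 7.41 and 8.73. They differed by 4.75 (SE 0.26, adjusted p = 7.63e-07) and 4.25 (SE 0.20, adjusted p = 2.59e-07) in SP cells. Sparcl1 had a mean of 6.54 over all arrays and passed the filter only through its Efemp1-high values. Thbs2 was thus high where its relative Thbs1 was low.

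Of the collagen chains 7 of 20 tested members were called higher and 6 lower. Collagen calls were 6 higher and 1 lower without betaD5 1 and cRAF_cMYC 3, 5 and 2 with the 3' to 5' ratio as a covariate, and 6 and 3 on the values as deposited. Col6a3, a chain of the microfibrillar type VI collagen, was 11.11, 12.09 and 12.0003 against 6.17, 6.15 and 6.04 in non-SP cells and differed by 6.04 (SE 0.21, adjusted p = 3.17e-08) in SP cells. Its partner chains Col6a1 and Col6a2 differed by 0.01 and 0.24 in non-SP cells, with adjusted p = 0.577 and adjusted p = 0.816 in SP cells. Col5a3 (2.06, SE 0.13, adjusted p = 2.66e-06), Col18a1, the source of endostatin (1.96, SE 0.17, adjusted p = 2.93e-05), and Col14a1 (2.60, SE 0.18, adjusted p = 4.25e-06) were called higher.

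Among matrix proteases and their inhibitors 13 of 25 tested members were called higher and 4 lower. Protease and inhibitor calls were 9 higher and 1 lower without betaD5 1 and cRAF_cMYC 3, and 9 and 2 with the 3' to 5' ratio as a covariate. The cysteine protease Ctsk, which degrades collagen, was 9.04, 10.04 and 9.79 against 5.68, 6.09 and 6.53 in non-SP cells. Adam19, a membrane metalloprotease, was 10.03, 9.77 and 9.92 against 7.08, 7.05 and 7.05, and Mmp9, a gelatinase, 7.84, 8.72 and 8.47 against 6.25, 5.96 and 5.21. The groups overlapped in none of them, and they differed by 3.76 (SE 0.22, adjusted p = 1.46e-06), 3.21 (SE 0.24, adjusted p = 7.51e-06) and 2.82 (SE 0.25, adjusted p = 2.51e-05) in SP cells. Of 13 tested integrins, the receptors of this matrix, 4 were called higher and 3 lower. Integrin calls were 0 higher and 0 lower without betaD5 1 and cRAF_cMYC 3 and with the 3' to 5' ratio as a covariate. Over all genes the shares were then 5.15% and 2.27%, and 6.04% and 3.5%, so few integrin calls could remain. Integrin calls were 4 and 0 with median centring, and 2 and 1 on the values as deposited.

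Contractile genes split. Acta2, the smooth muscle actin, was 11.36, 12.69 and 11.41 in the Efemp1-high and 14.22, 14.17 and 14.07 in the Efemp1-low non-SP arrays, and was called lower in SP cells (-1.85, SE 0.21, adjusted p = 1.48e-04). Tpm2, a tropomyosin, was called lower as well (-1.60, SE 0.28, adjusted p = 0.00259). Tagln, an actin-binding protein of smooth muscle, was 9.25, 10.65 and 10.32 against 8.89, 8.34 and 7.34 and was called higher (2.82, SE 0.35, adjusted p = 3.15e-04). Cnn1, calponin, differed by -1.09 in non-SP cells and by 0.31 in SP cells (adjusted p = 0.453). Over the list 2 of 11 tested members were called higher and 2 lower, near the 14.2% and 13.2% of all genes. Contractile gene calls were 1 higher and 2 lower without betaD5 1 and cRAF_cMYC 3 and on the values as deposited, and 1 and 1 with the 3' to 5' ratio as a covariate. Tpm2 was not called with the 3' to 5' ratio as a covariate (-1.17, adjusted p = 0.0522).

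The arrays were also read for the cell types of the lung. Cdh1, the cadherin of epithelial junctions, did not pass the filter. It reached at most 4.95 in the 12 arrays of the sets and was 6.13 to 7.29 in the A2C12 arrays. Epcam, an epithelial adhesion protein, was 9.13 ± 0.46 in the Efemp1-high and 9.03 ± 0.26 in the Efemp1-low non-SP arrays. The alveolar type II markers Sftpc and Nkx2-1 reached at most 6.47 and 6.68 in any of the 18 arrays and the club cell marker Scgb1a1 at most 5.62, and none of these 3 passed. Over the whole lists the mean of 13 alveolar type II markers was 6.69 to 6.82 in the Efemp1-high and 7.09 to 7.30 in the Efemp1-low non-SP arrays, and that of 8 club cell markers 6.12 to 6.24 against 6.46 to 6.82. The mean of 8 ciliated cell markers lay the other way, at 6.72 to 6.96 against 6.54 to 6.71. For 10 alveolar type I markers it was 7.77 to 7.95 against 7.93 to 7.96, with overlap. Of 8 tested alveolar type II markers 0 were called higher and 1 lower in SP cells, and of 3 tested club cell markers 1 and 2. Club cell marker calls were 0 higher and 0 lower without betaD5 1 and cRAF_cMYC 3, and 1 and 1 with the 3' to 5' ratio as a covariate. Cxcl15, Hp and Aldh1a1 are members of the alveolar type II and club cell lists. Of 6 tested alveolar type I markers 1 was called higher and 2 lower, and of 3 tested ciliated cell markers 1 and 0. Without betaD5 1 and cRAF_cMYC 3 these calls were 0 and 0 for alveolar type I and 1 and 0 for ciliated cells. With the 3' to 5' ratio as a covariate they were the same. Of 10 tested epithelial junction and keratin genes 0 were called higher and 2 lower in SP cells. Junction and keratin calls were 0 higher and 1 lower without betaD5 1 and cRAF_cMYC 3, and 0 and 0 with the 3' to 5' ratio as a covariate. Esrp2, a splicing regulator of epithelia, was one of them (-0.91, SE 0.18, adjusted p = 0.00427), though not with the 3' to 5' ratio as a covariate (-0.73, adjusted p = 0.0673).

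Mesothelial markers were present in both sets. Upk3b, an uroplakin of mesothelium, was 13.02 ± 0.65 and 11.93 ± 0.70 (SD, n = 3), and Wt1, a transcription factor of mesothelium, 10.11 ± 0.67 and 9.87 ± 0.16. In A2C12 non-SP cells they stood at 4.62 ± 0.27 and 5.93 ± 0.67. Lrrn4 was 12.26, 12.17 and 11.11 against 10.005, 9.53 and 10.51 in non-SP cells, with no call in SP cells (0.76, SE 0.50, adjusted p = 0.284), and Gpm6a, a membrane glycoprotein, was 12.14, 11.95 and 10.48 against 12.73, 12.26 and 13.21 and was called lower (-2.02, SE 0.46, adjusted p = 0.00937). For both genes cRAF_cMYC 2 was lowest in the Efemp1-high set. Of 10 tested mesothelial members 1 was called higher and 3 lower. Mesothelial calls were 0 higher and 0 lower without betaD5 1 and cRAF_cMYC 3 and with the 3' to 5' ratio as a covariate. The mean level of the 13 markers was 8.44 to 9.49 in the Efemp1-high and 8.72 to 9.24 in the Efemp1-low non-SP arrays, so the sets overlapped. The mean over 12 endothelial markers was 5.88 to 6.07 in the Efemp1-high and 6.21 to 6.31 in the Efemp1-low non-SP arrays, both near background, and Pecam1 reached at most 5.54 in any of the 18 arrays. Of 5 tested members Egfl7, a secreted endothelial protein, was called higher at 0.47 in SP cells and Eng, an auxiliary TGF-beta receptor, lower (-1.13, SE 0.16, adjusted p = 6.90e-04). The median difference of the 5 was -0.01 in non-SP cells and 0.15 in SP cells. Endothelial calls were 0 higher and 1 lower without betaD5 1 and cRAF_cMYC 3, with the 3' to 5' ratio as a covariate, with median centring and on the values as deposited. The part of such cells in the results was not tested. Gpm6a was not called without betaD5 1 and cRAF_cMYC 3 (-2.15, adjusted p = 0.0838) or with the 3' to 5' ratio as a covariate (-1.90, adjusted p = 0.0954).

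The tested mesenchymal transition regulators held smaller differences. Snai2, a repressor of epithelial genes, was 11.45, 11.17 and 11.52 against 10.24, 10.51 and 10.19 in non-SP cells and differed by 0.97 (SE 0.15, adjusted p = 0.00142) in SP cells. Of 13 tested members 5 were called higher and 3 lower. These calls were 1 higher and 0 lower without betaD5 1 and cRAF_cMYC 3 and on the values as deposited, 2 and 0 with the 3' to 5' ratio as a covariate, and 4 and 1 with median centring. Snai2 was not called on the values as deposited (0.81, adjusted p = 0.0714). In non-SP cells 2 of the 13 lay at least 2-fold higher without overlap and 0 lower, beside 5.51% and 2.29% of all genes. The 1 member left out by the filter also lay at least 2-fold higher without overlap, beside 4.51% of all autosomal genes left out.

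Secreted regulators of growth factor pathways held some of the largest changes. In the IGF system 4 of 13 tested members were called higher and 4 lower. Igfbp3, a binding protein that holds IGFs in the blood and tissue, was 9.46, 9.48 and 9.66 against 5.29, 5.79 and 5.51 in non-SP cells. Htra1, a serine protease that cuts IGF-binding and matrix proteins, was 11.96, 12.21 and 12.34 against 7.92, 8.86 and 8.44. In SP cells they differed by 3.71 (SE 0.31, adjusted p = 1.88e-05) and 3.53 (SE 0.23, adjusted p = 2.55e-06). Igfbp6 (1.59) and the receptor Igf2r (1.66) were called higher too. IGF system calls were 4 higher and 0 lower without betaD5 1 and cRAF_cMYC 3, 3 and 0 with the 3' to 5' ratio as a covariate, and 4 and 2 on the values as deposited. Igfbp6 was not called with the 3' to 5' ratio as a covariate (1.04, adjusted p = 0.0691).

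In the Wnt list 6 of 24 tested members were called higher and 4 lower. Wnt list calls were 6 higher and 0 lower without betaD5 1 and cRAF_cMYC 3, and 5 and 1 with the 3' to 5' ratio as a covariate. Sfrp1, a secreted inhibitor of Wnt ligands, was 10.52, 10.23 and 10.46 against 6.17, 6.14 and 5.82 in non-SP cells and differed by 3.86 (SE 0.22, adjusted p = 1.26e-06) in SP cells. Another probe set of Sfrp1 differed by 0.28 and -0.05 in the 2 fractions. Dkk3, a Dickkopf family protein, differed by 2.77 (SE 0.19, adjusted p = 4.09e-06). The Wnt receptors Fzd1 (2.65, SE 0.22, adjusted p = 1.95e-05) and Fzd6 (1.96, SE 0.24, adjusted p = 2.60e-04) were called higher, and Fzd1 was 10.51, 10.66 and 11.28 against 8.27, 7.90 and 8.31 in non-SP cells.

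In the TGF-beta and BMP list 10 of 27 tested members were called higher and 3 lower. TGF-beta and BMP calls were 4 higher and 0 lower without betaD5 1 and cRAF_cMYC 3, 3 and 1 with the 3' to 5' ratio as a covariate, and 6 and 3 on the values as deposited. Besides Tgfbi, Fst, the activin antagonist follistatin, was 9.97, 9.36 and 11.30 against 6.69, 7.17 and 7.001 in non-SP cells, with cRAF_cMYC 2 highest. Id4, an inhibitor of helix-loop-helix factors and target of BMP signals, was 9.94, 9.77 and 10.08 against 6.45, 6.73 and 7.37. The ligand Bmp4 lay the other way, at 10.004, 9.74 and 8.89 against 11.89, 11.13 and 11.73. They differed by 2.86 (SE 0.46, adjusted p = 0.00143), 3.15 (SE 0.26, adjusted p = 1.84e-05) and -1.88 (SE 0.43, adjusted p = 0.00928) in SP cells. Bmp4 was not called without betaD5 1 and cRAF_cMYC 3 (-2.04, adjusted p = 0.0663) or with the 3' to 5' ratio as a covariate (-1.91, adjusted p = 0.0769).

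Hedgehog genes were called higher in 3 of 9 tested members and lower in 1. Hedgehog calls were 2 higher and 0 lower without betaD5 1 and cRAF_cMYC 3 and with the 3' to 5' ratio as a covariate, and 3 and 0 with median centring and on the values as deposited. Gas1, a co-receptor of hedgehog ligands, was 12.71, 13.14 and 13.14 against 8.35, 8.18 and 8.996 in non-SP cells and differed by 4.52 (SE 0.21, adjusted p = 2.58e-07) in SP cells. The transcription factors Gli1, itself a target of the pathway, and Gli2 differed by 1.31 (SE 0.21, adjusted p = 0.00166) and 1.42 (SE 0.28, adjusted p = 0.00448). In the Notch list 3 of 11 were called higher and 2 lower. Notch list calls were 3 higher and 0 lower without betaD5 1 and cRAF_cMYC 3, and 3 and 1 with the 3' to 5' ratio as a covariate. The receptor Notch3 (1.31, SE 0.23, adjusted p = 0.00286) and the target Hey1 (2.28, SE 0.21, adjusted p = 3.59e-05) were higher, and the ligand Jag1 (-0.94, SE 0.15, adjusted p = 0.00172) and the target Hes1 (-1.003, SE 0.24, adjusted p = 0.0122) were lower. Gli2 was not called without betaD5 1 and cRAF_cMYC 3 (1.54, adjusted p = 0.0632) or with the 3' to 5' ratio as a covariate (1.28, adjusted p = 0.0662). Jag1 was not called without betaD5 1 and cRAF_cMYC 3 (-0.92, adjusted p = 0.0527). Hes1 was not called without betaD5 1 and cRAF_cMYC 3 (-1.18, adjusted p = 0.0803) or with the 3' to 5' ratio as a covariate (-0.90, adjusted p = 0.126).

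The FGF receptors changed in opposite directions. Fgfr1 was 10.70, 10.39 and 11.41 in the Efemp1-high and 9.01, 8.49 and 8.47 in the Efemp1-low non-SP arrays, and Fgfr2, which in the lung is mainly epithelial, was 7.30, 7.13 and 6.87 against 8.88, 8.47 and 8.64. In SP cells they differed by 2.30 (SE 0.30, adjusted p = 3.81e-04) and -1.41 (SE 0.15, adjusted p = 1.29e-04). The heparan sulphate co-receptor Gpc1 (2.40, SE 0.27, adjusted p = 1.48e-04) and the decoy receptor Fgfrl1 (1.26, SE 0.15, adjusted p = 1.94e-04) were called higher. Over the list 3 of 10 tested members were called higher and 4 lower. FGF list calls were 3 higher and 1 lower without betaD5 1 and cRAF_cMYC 3, and 3 and 2 with the 3' to 5' ratio as a covariate.

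Of the chemokines and cytokines 10 of 25 tested members were called higher and 3 lower in SP cells. Chemokine and cytokine calls were 5 higher and 1 lower without betaD5 1 and cRAF_cMYC 3, 6 and 1 with the 3' to 5' ratio as a covariate, and 7 and 6 on the values as deposited. Il1rn, the antagonist of the interleukin 1 receptor, was 7.32, 8.01 and 8.24 against 4.72, 4.79 and 4.27 in non-SP cells, and Ccl5, a chemokine of T cells and monocytes, 8.86, 8.50 and 8.63 against 5.98, 5.47 and 6.0004. They differed by 3.09 (SE 0.23, adjusted p = 7.13e-06) and 2.98 (SE 0.20, adjusted p = 4.03e-06) in SP cells. Ccl5, and Serping1 named next, lay below 6.54 in the Efemp1-low non-SP arrays. Both passed the filter through their Efemp1-high values, which fixed their direction. Acute phase and complement genes were called higher in 3 of 10 tested members and lower in 4. Acute phase and complement calls were 1 higher and 1 lower without betaD5 1 and cRAF_cMYC 3, and 1 and 4 on the values as deposited. Serping1, the C1 inhibitor, was 10.16, 10.24 and 10.79 against 4.85, 5.34 and 5.37 in non-SP cells (4.83, SE 0.19, adjusted p = 9.06e-08 in SP cells), whereas Saa3, serum amyloid A3 (-1.80, SE 0.38, adjusted p = 0.00637), and Ptx3, a pentraxin (-2.24, SE 0.23, adjusted p = 7.88e-05), were lower. In non-SP cells Saa3 was lowest in betaD5 3 within the Efemp1-low set, at 8.25 against 10.15 and 10.58, the order also seen for Cxcl15 and Hp. Saa3 was not called without betaD5 1 and cRAF_cMYC 3 (-1.42, adjusted p = 0.105).

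Interferon response genes were called higher in 7 of 18 tested members and lower in 2. Interferon calls were 4 higher and 0 lower without betaD5 1 and cRAF_cMYC 3, 5 and 0 with the 3' to 5' ratio as a covariate, 7 and 1 with median centring, and 3 and 1 on the values as deposited. Of those left out by the filter 3 of 11 lay at least 2-fold higher without overlap in non-SP cells, beside 4.51% of all autosomal genes left out. Gbp2, an interferon-induced GTPase, was 8.45, 9.11 and 9.33 against 4.83, 4.50 and 5.10 in non-SP cells and differed by 3.30 (SE 0.17, adjusted p = 5.92e-07) in SP cells, and Igtp, another such GTPase, differed by 1.35 (SE 0.17, adjusted p = 3.15e-04). In the prostaglandin system 4 of 10 were called higher and 1 lower. Prostaglandin system calls were 3 higher and 0 lower without betaD5 1 and cRAF_cMYC 3 and with the 3' to 5' ratio as a covariate. The prostaglandin transporter Slco2a1 was 10.92, 10.35 and 11.03 against 6.25, 6.36 and 6.59 (3.96, SE 0.26, adjusted p = 3.18e-06 in SP cells), the receptors Ptger3 and Ptger4 differed by 1.81 and 1.08 in SP cells, and Ptgs2, the inducible cyclooxygenase, was called lower (-1.20, SE 0.24, adjusted p = 0.00544). Ptger4 was not called without betaD5 1 and cRAF_cMYC 3 (1.25, adjusted p = 0.0726) or with the 3' to 5' ratio as a covariate (0.98, adjusted p = 0.103). Ptgs2 was not called without betaD5 1 and cRAF_cMYC 3 (-1.06, adjusted p = 0.109) or with the 3' to 5' ratio as a covariate (-1.21, adjusted p = 0.0555).

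**Figure D4:**
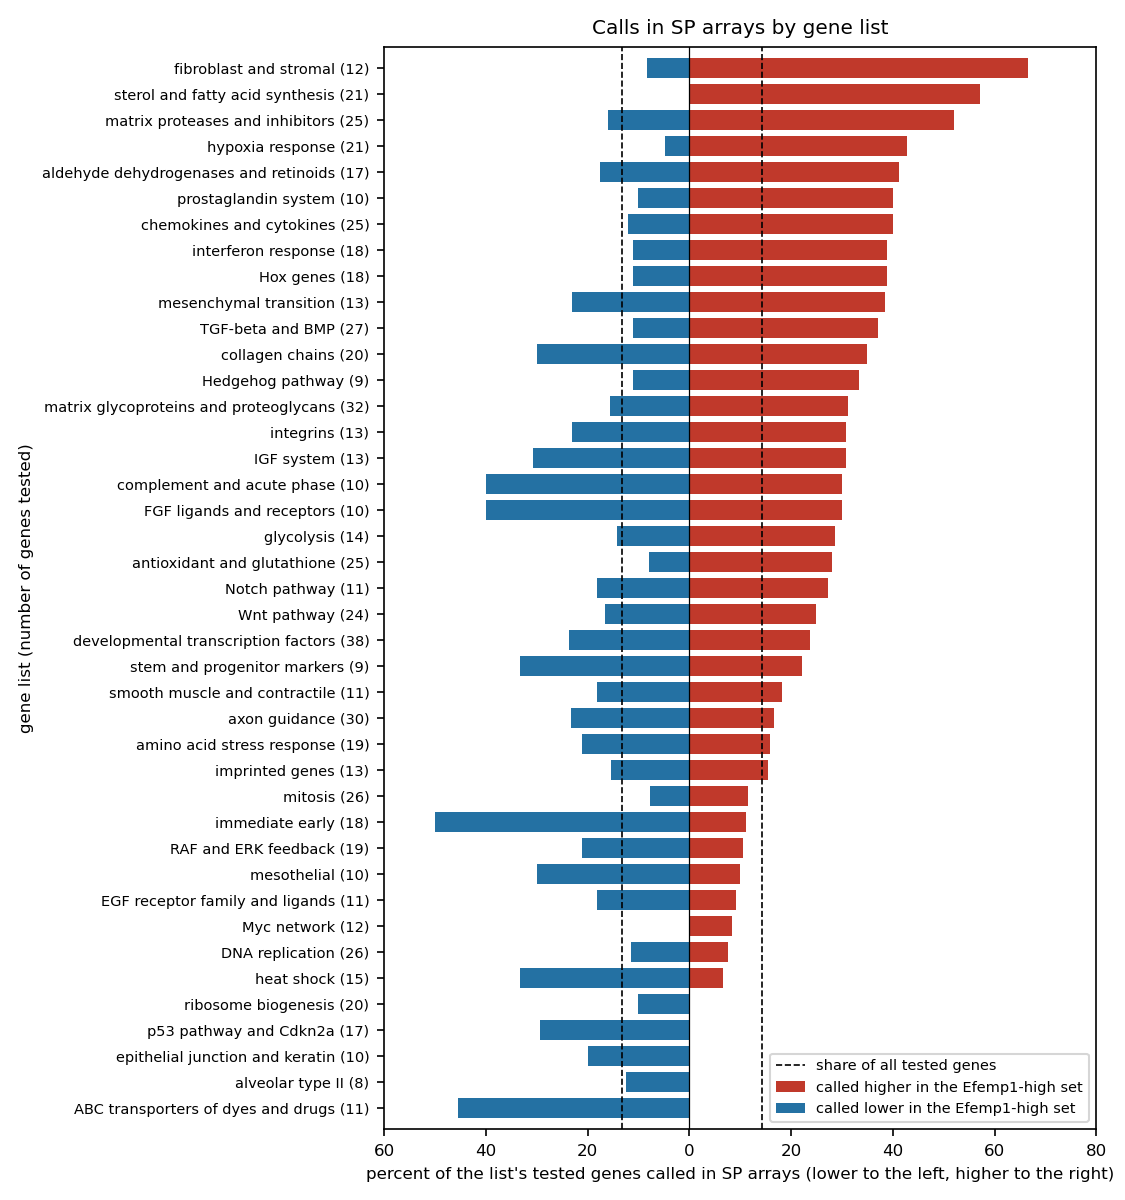
Share of each list's tested genes that limma called higher (red, to the right) or lower (blue, to the left) in the Efemp1-high SP arrays, in percent (x axis), for lists with 8 or more tested genes (number in brackets). Dashed lines mark the shares of all tested genes, 14.2% and 13.2%; fibroblast and sterol genes lie farthest to the right, and immediate early genes farthest to the left.

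Of 18 tested Hox genes 7 were called higher and 2 lower. Hox calls were 4 higher and 1 lower without betaD5 1 and cRAF_cMYC 3, 4 and 0 with the 3' to 5' ratio as a covariate, and 3 and 2 on the values as deposited. Of 15 Hox genes left out by the filter 3 lay at least 2-fold higher without overlap in non-SP cells and 0 lower. Hoxc8 and Hoxc10 among them, named after their values were seen, lay 7.33 and 4.28 higher. Of all autosomal genes left out 4.51% lay higher in this way and 0.735% lower. Hoxc4 was 9.66, 9.29 and 10.47 against 5.89, 5.48 and 6.06 in non-SP cells and differed by 4.13 (SE 0.31, adjusted p = 6.95e-06) in SP cells. Hoxc4 lay below 6.54 in the Efemp1-low non-SP arrays. It passed the filter through its Efemp1-high values, which fixed its direction. Hoxc9, of the same cluster, differed by 1.75 (SE 0.27, adjusted p = 0.00115), and Hoxb5 by 0.89 (SE 0.14, adjusted p = 0.00146). Hoxa4 and Hoxa9, of the Hoxa cluster, were the 2 lower ones. For Hoxb3 the brightest probe set differed by 1.11 in non-SP cells and another by -0.01. Hoxb5 was not called on the values as deposited (0.74, adjusted p = 0.107). Hoxb3 was not called without betaD5 1 and cRAF_cMYC 3 (0.96, adjusted p = 0.0657), with the 3' to 5' ratio as a covariate (0.70, adjusted p = 0.0792) or on the values as deposited (0.71, adjusted p = 0.134).

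Other developmental transcription factors were called higher in 9 and lower in 9 of 38 tested members. These calls were 8 higher and 2 lower without betaD5 1 and cRAF_cMYC 3, and 8 and 5 with the 3' to 5' ratio as a covariate. Nr2f1, an orphan nuclear receptor, was 9.51, 9.20 and 10.02 against 5.85, 5.69 and 6.71, Meis1, a partner of Hox proteins, 8.81, 8.29 and 9.56 against 5.62, 5.47 and 5.89, and Irx1, an Iroquois factor, 8.75, 8.74 and 9.12 against 5.91, 6.35 and 6.20. No array of either set entered the range of the other. They differed by 3.24 (SE 0.30, adjusted p = 3.59e-05), 2.66 (SE 0.34, adjusted p = 3.76e-04) and 2.70 (SE 0.16, adjusted p = 1.44e-06) in SP cells, and Irx2, which lies next to Irx1 in the genome, by 1.97 (SE 0.16, adjusted p = 1.79e-05).

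Of 21 genes of sterol and fatty acid synthesis, the targets of SREBP factors, 12 were called higher and 0 lower in SP cells. In non-SP cells 15 lay higher without overlap and 0 lower, beside 22.4% and 23.5% of all genes, with a median difference of 0.60. Sterol and fatty acid calls were 3 higher and 0 lower without betaD5 1 and cRAF_cMYC 3 and with the 3' to 5' ratio as a covariate, and 2 and 0 on the values as deposited. Elovl6, which elongates fatty acids, was 11.38, 11.43 and 11.75 against 10.05, 10.04 and 10.05 in non-SP cells. Fdps, a synthase of the mevalonate pathway, was 12.79, 12.87 and 12.52 against 11.91, 11.19 and 11.88. In SP cells they differed by 1.53 (SE 0.21, adjusted p = 5.70e-04) and 2.11 (SE 0.29, adjusted p = 5.48e-04). Scd1, a desaturase, differed by 0.59 (SE 0.15, adjusted p = 0.014). Scd1 was not called without betaD5 1 and cRAF_cMYC 3 (0.67, adjusted p = 0.0794), with the 3' to 5' ratio as a covariate (0.35, adjusted p = 0.195) or on the values as deposited (0.48, adjusted p = 0.307). Scd1 lost its call without the SP array betaD5 1 (0.55, adjusted p = 0.0626) or betaD5 3 (0.55, adjusted p = 0.0558).

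Hypoxia genes were called higher in 9 of 21 tested members and lower in 1. Hypoxia gene calls were 6 higher and 0 lower without betaD5 1 and cRAF_cMYC 3 and with the 3' to 5' ratio as a covariate. Egln3, a prolyl hydroxylase that marks hypoxia-inducible factors for decay, was 8.67, 9.004 and 8.95 against 4.33, 4.44 and 4.19 in non-SP cells, and the factor subunit Epas1 8.99, 8.36 and 8.30 against 6.48, 5.30 and 6.58. They differed by 4.46 (SE 0.17, adjusted p = 7.73e-08) and 1.38 (SE 0.22, adjusted p = 0.00149) in SP cells. Adm, adrenomedullin, and Pdk1, a brake on pyruvate oxidation, differed by 1.69 and 1.53. Of 14 glycolytic genes 4 were called higher and 2 lower. Glycolytic calls were 3 higher and 0 lower without betaD5 1 and cRAF_cMYC 3, and 3 and 1 with the 3' to 5' ratio as a covariate, with median centring and on the values as deposited. Those higher included the brain-type isozymes Aldoc (3.47, SE 0.22, adjusted p = 2.16e-06) and Eno2 (1.89, SE 0.23, adjusted p = 3.08e-04) and the lactate dehydrogenase subunit Ldhb (1.94, SE 0.16, adjusted p = 1.42e-05).

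Enzymes of aldehyde, folate and retinoid metabolism were called higher in 7 of 17 tested members and lower in 3. Aldh1l2, a mitochondrial folate enzyme, was 11.05, 10.08 and 10.17 against 6.48, 6.17 and 7.29 in non-SP cells, and its cytosolic relative Aldh1l1 7.94, 8.30 and 8.87 against 5.17, 5.50 and 5.74. They differed by 3.76 (SE 0.24, adjusted p = 2.18e-06) and 2.95 (SE 0.19, adjusted p = 2.21e-06) in SP cells, and Rarres2, which encodes chemerin, by 2.07 (SE 0.21, adjusted p = 7.11e-05). Aldh1a1, a retinal dehydrogenase, lay the other way at 13.59, 13.19 and 12.28 against 13.73, 13.90 and 13.95 (-1.40, SE 0.37, adjusted p = 0.0199 in SP cells), and was 5.21 ± 0.86 in A2C12. In the antioxidant and glutathione list 7 of 25 were called higher and 2 lower. Antioxidant and glutathione calls were 5 higher and 0 lower without betaD5 1 and cRAF_cMYC 3, and 4 and 0 with the 3' to 5' ratio as a covariate. Gsta4, a glutathione transferase for lipid peroxidation products, was 11.06, 10.82 and 11.21 against 5.94, 6.45 and 6.61 in non-SP cells, and Gpx3, the secreted glutathione peroxidase, 9.44, 9.97 and 9.78 against 5.89, 6.49 and 6.63. In SP cells they differed by 4.17 (SE 0.22, adjusted p = 6.12e-07) and 3.06 (SE 0.34, adjusted p = 1.33e-04), Mgst2 by 2.96 and Gstm5 by 2.02. Aldh1a1 was not called without betaD5 1 and cRAF_cMYC 3 (-1.67, adjusted p = 0.087) or with the 3' to 5' ratio as a covariate (-1.17, adjusted p = 0.182). Aldh1a1 lost its call without the SP array betaD5 3 (-1.37, adjusted p = 0.0694) or cRAF_cMYC 3 (-1.41, adjusted p = 0.0583).

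Immediate early genes, which serum and stress induce within minutes, were called lower in 9 of 18 members and higher in 2 in SP cells. Immediate early calls were 1 higher and 2 lower without betaD5 1 and cRAF_cMYC 3, 1 and 4 with the 3' to 5' ratio as a covariate, and 1 and 8 on the values as deposited. Atf3, a stress-induced factor, was 9.82, 10.07 and 9.28 against 10.58, 11.22 and 11.27 in non-SP cells, and Junb, an AP-1 subunit, 9.77, 9.95 and 10.23 against 10.91, 11.39 and 11.08. They differed by -1.77 (SE 0.28, adjusted p = 0.00127) and -1.11 (SE 0.18, adjusted p = 0.00145) in SP cells. The exception Egr3 was 9.90, 10.05 and 9.69 against 7.02, 6.996 and 7.86 (2.12, SE 0.29, adjusted p = 5.22e-04 in SP cells), and another probe set of Egr3 differed by -0.21 in non-SP cells. Heat shock genes were lower in 5 of 15 and higher in 1, with the small heat shock protein Hspb1 at -0.98 (SE 0.10, adjusted p = 7.97e-05) and the chaperone Hspa4l at -0.74 (SE 0.18, adjusted p = 0.0117), whereas Hspb2 was higher (1.20, SE 0.20, adjusted p = 0.00208). Heat shock calls were 1 higher and 3 lower without betaD5 1 and cRAF_cMYC 3, and 2 and 3 with the 3' to 5' ratio as a covariate. Atf3 was not called without betaD5 1 and cRAF_cMYC 3 (-1.62, adjusted p = 0.052). Junb was not called without betaD5 1 and cRAF_cMYC 3 (-0.94, adjusted p = 0.0604). Hspa4l was not called without betaD5 1 and cRAF_cMYC 3 (-0.68, adjusted p = 0.151) or with the 3' to 5' ratio as a covariate (-0.79, adjusted p = 0.0724). Hspa4l lost its call without the SP array betaD5 1 (-0.70, adjusted p = 0.0514).

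In the p53 pathway and Cdkn2a list 0 of 17 tested members were called higher and 5 lower in SP cells. The calls were 0 higher and 1 lower without betaD5 1 and cRAF_cMYC 3 and with the 3' to 5' ratio as a covariate. Cdkn2b, an inhibitor of CDK4, was 8.57, 8.19 and 7.72 against 9.65, 9.28 and 9.94 in non-SP cells and differed by -1.67 (SE 0.28, adjusted p = 0.00217) in SP cells. Its neighbour Cdkn2a, the gene of p16 and p19Arf, was 10.15, 9.16 and 9.06 against 10.77, 10.61 and 11.33, a difference of -1.45, and was not called (-1.19, SE 0.53, adjusted p = 0.118). Phlda3, a p53 target that restrains AKT, differed by -0.77 (SE 0.18, adjusted p = 0.0113). Phlda3 was not called without betaD5 1 and cRAF_cMYC 3 (-0.86, adjusted p = 0.075) or with the 3' to 5' ratio as a covariate (-0.82, adjusted p = 0.0731).

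Of 12 Myc network genes 1 was called higher, Mycl (1.23, SE 0.18, adjusted p = 8.22e-04), and 0 lower. Myc itself, for which endogenous and transgenic RNA were not told apart, was 10.04, 10.38 and 10.26 against 10.35, 10.88 and 10.62 in non-SP cells with overlap, and differed by -0.49 (SE 0.17, adjusted p = 0.0518) in SP cells. Of 19 genes of the RAF and ERK pathway 2 were called higher and 4 lower. RAF and ERK calls were 1 higher and 0 lower without betaD5 1 and cRAF_cMYC 3 and with the 3' to 5' ratio as a covariate, 1 and 2 with median centring, and 0 and 3 on the values as deposited. The kinase Map2k1 was 11.27, 11.28 and 11.25 against 10.20, 10.34 and 10.55 and differed by 0.86 (SE 0.13, adjusted p = 0.00124). Mitosis genes were called higher in 3 and lower in 2 of 26, replication genes in 2 and 3 of 26, and ribosome biogenesis genes in 0 and 2 of 20. Mitosis calls were 1 higher and 0 lower without betaD5 1 and cRAF_cMYC 3 and with the 3' to 5' ratio as a covariate, 3 and 0 with median centring, and 0 and 0 on the values as deposited. Replication calls were 0 higher and 1 lower without betaD5 1 and cRAF_cMYC 3 and with the 3' to 5' ratio as a covariate, 1 and 2 with median centring, and 0 and 0 on the values as deposited. Ribosome biogenesis calls were 0 higher and 0 lower without betaD5 1 and cRAF_cMYC 3, with the 3' to 5' ratio as a covariate, with median centring and on the values as deposited. Among them the replicative helicase subunit Mcm4 (-0.60, SE 0.10, adjusted p = 0.00199) was lower, and Birc5, survivin (0.76, SE 0.16, adjusted p = 0.00686), and the cyclin Ccnb2 (0.98, SE 0.17, adjusted p = 0.00256) higher. Map2k1 was not called on the values as deposited (0.70, adjusted p = 0.134). Mcm4 was not called on the values as deposited (-0.69, adjusted p = 0.0845). Birc5 was not called without betaD5 1 and cRAF_cMYC 3 (0.75, adjusted p = 0.089) or on the values as deposited (0.62, adjusted p = 0.177). Ccnb2 was not called with the 3' to 5' ratio as a covariate (0.78, adjusted p = 0.0532) or on the values as deposited (0.83, adjusted p = 0.0554).

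ABC transporters were called lower in 5 of 11 tested members and higher in 0. ABC transporter calls were 0 higher and 1 lower without betaD5 1 and cRAF_cMYC 3, and 0 and 2 with the 3' to 5' ratio as a covariate. Abcg2, the main Hoechst pump of many side populations, was 10.36, 10.79 and 10.40 against 10.56, 10.39 and 10.67 in non-SP cells, overlapped, and differed by -0.32 (SE 0.16, adjusted p = 0.152) in SP cells. Abcb1a overlapped as well (7.71, 6.63 and 6.98 against 6.56, 7.46 and 7.08) and was not called (-0.44, SE 0.25, adjusted p = 0.219). Abcb1b, its relative, differed by -0.25 in non-SP cells and was called lower in SP cells (-0.71, SE 0.20, adjusted p = 0.025). The conjugate exporters Abcc4 (-1.01, SE 0.18, adjusted p = 0.00287) and Abcc3 (-0.98, SE 0.26, adjusted p = 0.0187) were lower, and Abcc4 was 9.47, 9.32 and 9.74 against 10.43, 10.80 and 10.48 in non-SP cells. A2C12 non-SP cells had Abcg2 at 8.91 ± 0.10, below all 6 arrays of the sets. Abcb1b was not called without betaD5 1 and cRAF_cMYC 3 (-0.74, adjusted p = 0.165), with the 3' to 5' ratio as a covariate (-0.66, adjusted p = 0.169) or on the values as deposited (-0.86, adjusted p = 0.0547). Abcb1b lost its call without the SP array betaD5 1 (-0.76, adjusted p = 0.0562), betaD5 2 (-0.63, adjusted p = 0.0805), cRAF_cMYC 2 (-0.50, adjusted p = 0.0645) or cRAF_cMYC 3 (-0.68, adjusted p = 0.0798). Abcc4 was not called with the 3' to 5' ratio as a covariate (-0.89, adjusted p = 0.052). Abcc3 was not called without betaD5 1 and cRAF_cMYC 3 (-1.01, adjusted p = 0.114). Abcc3 lost its call without the SP array betaD5 3 (-0.91, adjusted p = 0.0736) or cRAF_cMYC 3 (-0.86, adjusted p = 0.0735).

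Whether a gene differed more between the sets in SP than in non-SP cells was tested as an interaction over the 12 arrays. Limma called 0 genes (0%), while 406 had an unadjusted p under 0.05 and the smallest adjusted p was 0.338. With the line and number pairs as a block it called 0 again (0%), while 1646 had an unadjusted p under 0.05 and the smallest adjusted p was 0.0978. The median 95% half-width of the difference of differences, before adjustment, was 0.49 without the block and 0.33 with it. The adjusted test missed larger values too: Cnn1, at 1.40, had an adjusted p of 0.996 in limma's test without the block. The 0 calls thus do not exclude changes above the half-width.

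The differences between the sets were not spread evenly over the genome. The median non-SP difference of a chromosome's genes ran from -0.41 on chromosome 8 to 0.44 on chromosome 3, against -0.05 over all genes. In SP cells 256 of 605 tested genes of chromosome 8 were called lower and 28 higher (46.9% called, against 27.4% of all genes), and 215 of 525 on chromosome 3 were called higher and 19 lower (44.6%). Chromosome 9 had a median of 0.29 with 192 genes called higher and 22 lower, and chromosome 16 a median of -0.28 with 19 higher and 97 lower. Chromosomes 2, 12 and 18 also lay low, with medians of -0.26, -0.24 and -0.23, and chromosomes 4 and 5 stayed at -0.01 and 0.07. The genes named above do not all follow their chromosome: Vegfc, Sfrp1 and Fgfr1 lie on chromosome 8 and were higher in the Efemp1-high set.

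On chromosome 8 the shift ran along its whole length, with medians of -0.36, -0.39, -0.45 and -0.42 in 4 successive equal blocks of its tested genes by map order. On chromosome 9 it was uneven, with medians of 0.12 and 0.14 in the first 2 blocks and 0.50 and 0.43 in the last 2, and on chromosome 1 it was 0.39 in the first block and -0.03 in the third. Set against the mean of the 9 non-SP arrays and the median of all genes, chromosome 8 stood at 0.31, 0.32 and 0.32 in betaD5 2, betaD5 3 and cRAF_cMYC 3. In the Efemp1-high set it stood at 0.04 and -0.01 in betaD5 1 and cRAF_cMYC 1 and at -0.20 in cRAF_cMYC 2. Chromosome 3 stood at -0.23, -0.20 and -0.22 in the Efemp1-low arrays and at 0.17, 0.19 and 0.32 in the Efemp1-high ones, with cRAF_cMYC 2 again farthest out. The SP arrays were split in the same way, with chromosome 8 at -0.07, 0.06 and -0.29 in the Efemp1-high set and 0.29 to 0.32 in the Efemp1-low set. A2C12 had its own pattern, with chromosome 14 at 0.36 to 0.44 and chromosome 18 at -0.57 to -0.49 in non-SP cells. DNA copy number was not measured.

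**Figure D5:**
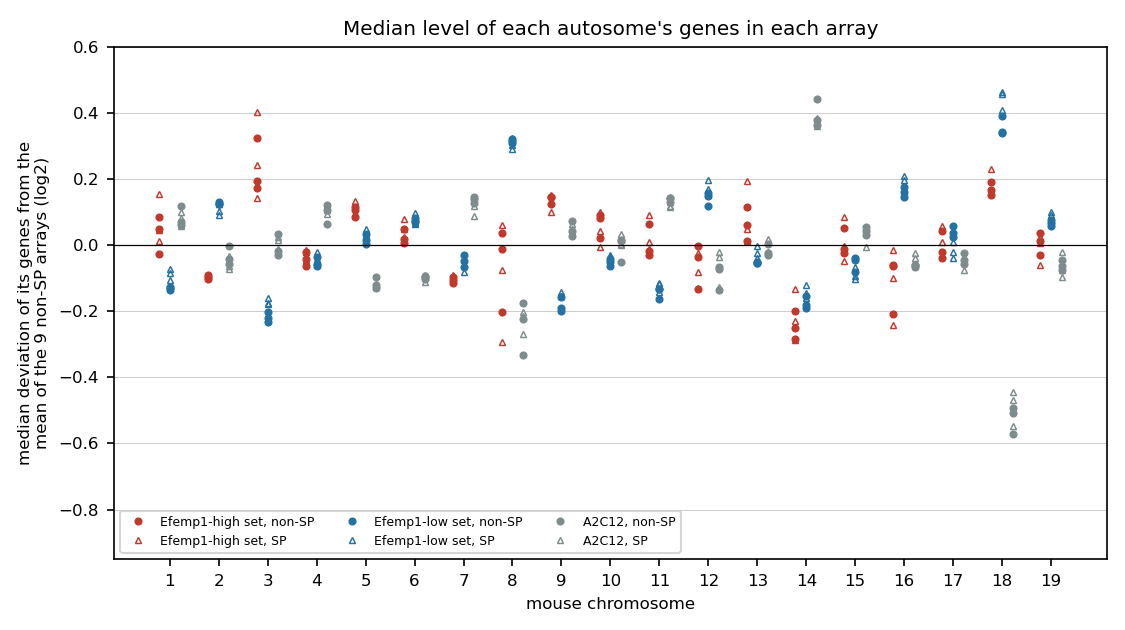
Median deviation of an autosome's tested genes from the mean of the 9 non-SP arrays, less that of all genes (y axis, log2), for each of the 18 arrays; filled circles are non-SP and open triangles SP arrays, red the Efemp1-high set, blue the Efemp1-low set and grey A2C12. The non-SP sets differ most on chromosomes 3 and 8 (medians of 0.44 and -0.41), and on chromosome 8 the Efemp1-high array cRAF_cMYC 2 lies below the other two of its set in both fractions.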

How the data were processed

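RNA of both fractions was hybridised to Affymetrix 3' arrays, with 200 ng of total RNA giving 10 µg of labelled cRNA per array, per the labels' protocols. The deposited values are log2 signals of 45101 probe sets, made by the authors with Affymetrix Expression Console, per the submitters' processing notes. The version, summary method and normalization are not given in the sources used here. Deposited array medians lay between 5.80 and 6.72, so the 18 arrays were quantile-normalized. Signals are not counts, and 3 arrays per set limit the precision.

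Control probe sets (64) and those with several gene symbols (932) were left out. Each of 18193 genes was represented by its brightest probe set, the 40% of genes with the lowest mean over all arrays were left out, and 10916 were tested. Of 168 named genes 66 had another probe set above that level. Of these 94 probe sets 79 lay on the same side in both fractions, and genes with one on the opposite side are marked where described. Some on the same side were much weaker than the brightest one in non-SP cells. Such a probe set differed by 3.33 against 6.99 for Serpinf1, 0.33 against 4.49 for Gas1 and 0.42 against 4.37 for Slco2a1. For Id4 and Rgs5 it was 0.48 against 3.08 and 2.63 against 5.82. R 4.3.3 and limma 3.58.1 (lmFit, eBayes with a trend) gave two-sided tests, with calls made below 0.05 after Benjamini-Hochberg adjustment. The SP fit had 4 residual degrees of freedom. On simulated data for this comparison, with 10916 genes, 69% of 100 changes of 1 and 99% of 100 changes of 2 were recovered, with 13 false calls. Far fewer genes changed there than the 27.4% called in the SP arrays, so these rates need not hold for the measured data.

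The array sets, the members and the gene lists were chosen with earlier results of these data known. Named were the 14 largest increases and 14 largest decreases of the non-SP difference without overlap among autosomal genes with an ordinary symbol. Up to 4 non-overlapping members of each described list were named too (2 where all overlapped), as were Efemp1, Fgf13, Abcg2, Abcb1a, Abcb1b and Myc. Other X-linked genes and Y-linked genes were left out of named results. Genes named outside this rule are marker or partner genes of a list, or are said to have been picked after their values were seen.

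Whether same-numbered SP and non-SP arrays pair was checked by the correlation of their deviations from the means of their set and fraction. It was 0.61, 0.14 and 0.14 for betaD5 1, 2 and 3 and 0.72, 0.83 and 0.66 for cRAF_cMYC 1, 2 and 3. The numbers were taken to pair the fractions, though for betaD5 2 and 3 these values give little ground for it. The non-SP array betaD5 3 correlated better with another number (0.30). Alternatives covered the scaling, the filter, the choice of probe sets, the variance model, each array left out, betaD5 1 and cRAF_cMYC 3 left out, blocks, the 3' to 5' ratio, and the arrays in the fit.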

Additional observations from a re-analysis of the deposited data

Results flagged for a closer look

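In 11 of the 168 named genes the difference between SP and non-SP cells had one sign in all 3 Efemp1-high pairs and the other in all 3 Efemp1-low pairs. The share of such genes over all tested genes was not determined, so the count does not set these genes apart. The difference between the sets did not pass limma's interaction test for any of them, with an adjusted p of 0.996 for each, and 0.262 to 0.605 with the pairs as a block. These signs and paired values rest on pairing betaD5 2 and 3 by number across fractions, where the deviations of same-numbered arrays had r of 0.14 and 0.14, against 0.30 between betaD5 3 and another number.

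Among contractile and matrix genes, Cnn1 was on average 0.77 higher in SP than in non-SP cells of the Efemp1-high set and -0.63 in the Efemp1-low set. Acta2 stood at 0.40 and -0.09, and Thbs1 at 0.22 and -0.47. Efemp1 itself was -0.16 in its high set and 0.37 in its low set, where its signal is near background.

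Among the surface and immune genes Gpm6a was -0.51 and 0.31, the interferon-induced Gbp2 -0.48 and 0.38, and Fcer1g, an Fc receptor chain, 0.0769 and -0.19. The mesothelial marker Calb2 was 0.18 and -0.44, the alveolar marker Hopx 0.23 and -0.39, the transporter Abca2 0.20 and -0.25, and the cyclin Ccne1 0.0668 and -0.07. Hopx has another probe set that differed between the sets by -0.06 in non-SP cells against -0.76 for the brightest one. The values of Ccne1 and Fcer1g are smaller than the median 95% half-width of 0.33 of the paired interaction.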

How the results depend on the processing

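The 2989 calls between the sets in SP arrays became 1388 on the values as deposited, 4491 over every probe set (27023 tested), 1884 with the labelled line as a block, 1041 with the 3' to 5' ratio as a covariate and 810 without betaD5 1 and cRAF_cMYC 3. Leaving out 1 SP array gave 1863 to 3495. With the replicate block the difference between the sets rests only on the SP arrays numbered 2, 1 per set, so its calls are not counted here. Across lines the numbers do not pair arrays (r of their deviations -0.68 to 0.75). The count of 2989 stayed within 1.5 times under median centring (2358), no filter (3280), a 60% filter (2111), the mean of probe sets (2681), no variance trend (2898) and all 18 arrays in 1 fit (3466). The 851 genes with a 2-fold non-SP difference became 1923 probe sets over every probe set and 438 with the 60% filter, which tests fewer genes, and 763 to 1014 with 1 array left out. The 0 calls between labelled lines became 1890 without betaD5 1 and cRAF_cMYC 3, where the contrast is the split by Efemp1 and no test. They stayed 0 in the other alternatives run, the replicate block included. The interaction stayed at 0 calls in every alternative run. Of the 28 largest differences 26 were called under every alternative that tested them, and of 110 other named calls 64. None changed sign in SP arrays. With 1 array left out, 458 counts of calls over a gene list stayed within 1.5 times, 23 rose and 107 fell. In non-SP arrays Emp2 turned from 0.45 to -0.14 with the mean of its probe sets. The causes were not tested. With 3 arrays a set, the median 95% half-width of an SP difference was 0.37 before adjustment. Smaller differences were not detectable for a typical gene, and some larger ones were not called either. Levels near 6.54 and below are close to background.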

Other observations

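Gene groups not described above had calls in SP arrays in both directions, or in 1 where few genes were tested, beside 14.2% of all genes called higher and 13.2% lower. Of 30 axon guidance genes 5 were called higher and 7 lower, of 19 genes of the amino acid stress response 3 and 4, and of 13 imprinted genes 2 and 2. Cadherins and protocadherins were called higher in 0 and lower in 2 of 6, EGF receptor family members and ligands in 1 and 2 of 11, and stem and progenitor markers in 2 and 3 of 9. Of 3 neuronal and neuroendocrine genes above the filter 2 were called higher, and of 7 genes of the aryl hydrocarbon receptor and cytochromes 2 were called higher and 2 lower. Without betaD5 1 and cRAF_cMYC 3 the calls higher and lower were 3 and 1 for axon guidance, 3 and 1 for the amino acid stress response, 2 and 0 for imprinted genes and 0 and 1 for cadherins. They were 1 and 0 for the EGF receptor family, 1 and 2 for stem markers, 2 and 0 for neuronal genes and 0 and 1 for cytochromes. With the 3' to 5' ratio as a covariate axon guidance had 3 and 3 calls, the amino acid stress response 2 and 1, and imprinted genes 1 and 1. On the values as deposited axon guidance had 3 and 6, and the amino acid stress response 1 and 2.

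The filter on low values left out 18 of the 24 autosomal cadherins and protocadherins. In non-SP cells 4 of the 18 lay at least 2-fold higher without overlap in the Efemp1-high set and 0 lower, beside 4.51% and 0.735% of all autosomal genes left out. These 4, named after their values were seen, were Pcdh17 at 4.36, Cdh11 at 3.85, Pcdh20 at 1.89 and Cdh3 at 1.31. Of 6 neuronal and neuroendocrine genes left out, 3 lay at least 2-fold higher in the same way, and of 9 axon guidance genes 2.

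Within the Efemp1-low set a few secreted and immune genes, picked after their values were seen, differed between the arrays labelled betaD5 2 and betaD5 3, and the order turned between fractions. Il33, a cytokine of the interleukin 1 family, was 11.14 and 8.40 in betaD5 2 and 3 in non-SP cells and 8.50 and 10.55 in SP cells. Csf2, the growth factor GM-CSF, was 10.08 and 7.47 in non-SP cells and 6.54 and 8.69 in SP cells. Mgp, a matrix protein that inhibits calcification, was 9.65 and 7.94 in non-SP cells and 6.60 and 8.94 in SP cells, and Cxcl15 was 8.33 and 5.70 against 5.94 and 7.73. The non-SP array numbered 3 and the SP array numbered 2 were thus the low ones. Both belong to the Efemp1-low set, so its membership does not depend on these numbers.

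Within the Efemp1-high set Clec2d, a C-type lectin ligand picked the same way, was 9.53 and 9.17 in betaD5 1 and cRAF_cMYC 2 and 7.04 in cRAF_cMYC 1 in non-SP cells, and 9.63, 9.61 and 7.94 in the SP arrays of the same labels. Upk1b, an uroplakin, was 9.36 and 9.30 in betaD5 1 and cRAF_cMYC 1 and 7.20 in cRAF_cMYC 2, with 8.94, 9.49 and 7.18 in SP cells. In both fractions cRAF_cMYC 1 was the lowest of the set for Clec2d and cRAF_cMYC 2 for Upk1b.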
